A study of Mus musculus with 3 samples.

Results

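The genes for beta-catenin (Ctnnb1), the 4 Tcf/Lef DNA-binding factors (Tcf7, Tcf7l1, Tcf7l2 and Lef1) and the scaffold proteins Axin1, Axin2 and Apc were examined for FOXF1 binding sites in the fetal mouse lung. They are 8 of 21887 protein-coding genes in the RefSeq table of GRCm38, the assembly also called mm10, and were chosen by name. The ChIP samples were whole lungs of wild-type C57BL/6 mice at embryonic day 18.5, in 2 biological replicates that each pooled 3 lungs, precipitated with an antibody to FOXF1, a forkhead transcription factor of the lung mesenchyme and endothelium. A 2% input of the same tissue was the control and entered only through the authors' peak calls. Whole lung mixes endothelium, mesenchyme, epithelium and blood cells, so a site cannot be traced to a cell type, and summits carry no expression against which the tissue label could be checked.

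Beta-catenin carries the canonical WNT signal. Without WNT it is bound by a destruction complex built on Axin and Apc, phosphorylated and degraded. With WNT it accumulates, enters the nucleus and binds Tcf/Lef factors, which otherwise hold target genes silent with corepressors. Axin2, Lef1 and Tcf7 are themselves targets of the pathway in many tissues, and Axin2 is widely used to mark cells that receive WNT. In the developing lung the pathway acts in both epithelium and mesenchyme.

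The lists of replicates 1 and 2 held 107378 and 61172 summits on chromosomes 1 to 19, X and Y, and the 51013 mutual nearest pairs at most 100 bp apart were taken as shared sites. A site belonged to a gene when it lay inside it, or within 100 kb with an end of that gene as the nearest end of any protein-coding gene. Each score below is the authors' −log10 significance of the peak at its summit. Such scores depend on depth, which is unknown here, and those of replicate 1 were larger. The rank of a site was taken within each replicate, as the percentage of the 51013 shared sites with a lower score. Within a gene, sites are ordered by the mean of both scores, in which replicate 1 weighs more. Nearness does not show that a site acts on the gene.

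Each of the 8 genes had at least 1 shared site, and together they had 60. Of all protein-coding genes, 60.7% had a site. The share was 70.0% in genes of 20 to 50 kb and 81.0% in genes of 50 to 100 kb. In genes of 100 to 200 kb it was 87.8%, and these length classes hold all 8 genes. None of the 60 sites belonged to any other protein-coding gene by the same rule. Tcf7l2 had 16 sites, Lef1 and Axin2 had 10 each, Tcf7l1 had 9, Ctnnb1 and Tcf7 had 6 each, Apc had 2 and Axin1 had 1. The median over the 8 genes was 7.5 sites, beside a median of 1 over all protein-coding genes. At least 6 sites were found at 6 of the 8 genes, beside 10.7% of all protein-coding genes, and at least 9 sites at 4 of them, beside 5.81%. These limits of 6 and 9 are themselves the numbers found at Ctnnb1, Tcf7 and Tcf7l1.

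The 8 genes are also long, with a median length of 83244 bp against 17169 bp over all protein-coding genes, and longer genes held more sites. The median was 1 site in genes of 20 to 50 kb, 2 sites in genes of 50 to 100 kb and 4 sites in genes of 100 to 200 kb. Set against genes of their own length class, Axin2 had more sites than 98.5%, Tcf7l2 than 93.0%, and Ctnnb1 and Tcf7 than 92.6%. Lef1 exceeded 77.3% and Tcf7l1 74.1% of their class. Apc exceeded 24.3% and Axin1 19.0%, so the destruction-complex scaffolds Apc and Axin1 lay in the lower part of their classes and Axin2 near the top. These classes take no account of the flank in which sites also counted. By sites per 100 kb inside the gene, among protein-coding genes of at least 20 kb, Tcf7 stood above 95.6%, Ctnnb1 above 87.9%, Axin2 above 83.2% and Tcf7l1 above 78.5%. Lef1 stood above 73.0%, Tcf7l2 above 71.2%, Axin1 above 42.5% and Apc above 36.9%. These densities rest on few sites inside the gene, with 8 each at Tcf7l1 and Tcf7l2, 5 at Lef1 and 4 at Tcf7. Ctnnb1 and Axin2 had 2 each inside, and Axin1 and Apc 1 each. Axin2, Tcf7l2, Ctnnb1 and Lef1 thus ranked lower by density inside the gene than by number, and Tcf7, Tcf7l1, Axin1 and Apc ranked higher. The ranks by number and by density were taken among different sets of genes.

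**Figure D1:**
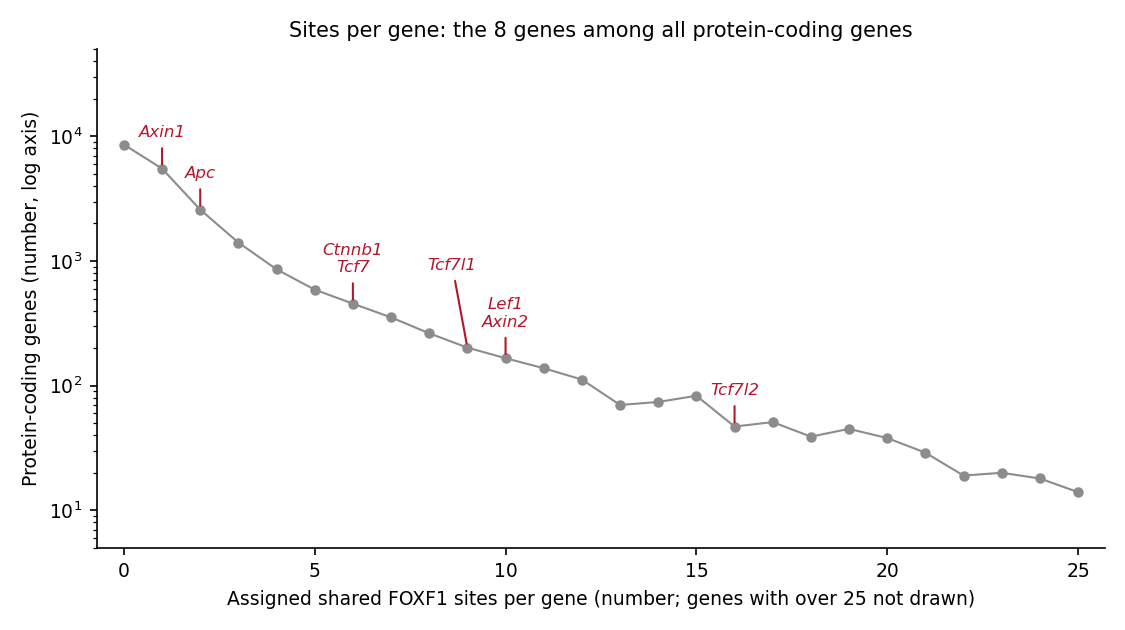
Number of assigned shared FOXF1 sites per gene (x axis) against the number of protein-coding genes with that many sites (y axis, log scale, grey points); the 8 genes are named at their own number. Tcf7l2 stands at 16 sites and Lef1 and Axin2 at 10, while Apc and Axin1 stand at 2 and 1, near the median of 1 over all protein-coding genes.

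Promoter sequences show where the summits fell. Of the 8 genes, 6 have an entry in the RefSeq table of promoter windows (GRCm38.p6), which run from 250 bases before a start of transcription to 50 bases after it. They have 12 windows, of which 4 held a shared site, namely 1 each of Tcf7l2, Tcf7l1, Ctnnb1 and Tcf7, beside 15.7% of all 32851 windows. The stretches upstream of Tcf7l2 and Tcf7l1 are shown because a site lay in each and only the first holds a forkhead core. The third stretch lies downstream of Axin2, in the promoter window of the noncoding gene Gm36876. It is shown because it holds a high site beside such a core, 83 bp upstream of the listed start of Gm36876. All are 5′ to 3′ on the gene's strand (for the third, on that of the noncoding gene Gm36876), and capitals mark matches to the forkhead core TGTTTA on either strand, or TAAACA where it lies on the opposite one.

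Tcf7l2, plus strand, chr19:55741560-55741796: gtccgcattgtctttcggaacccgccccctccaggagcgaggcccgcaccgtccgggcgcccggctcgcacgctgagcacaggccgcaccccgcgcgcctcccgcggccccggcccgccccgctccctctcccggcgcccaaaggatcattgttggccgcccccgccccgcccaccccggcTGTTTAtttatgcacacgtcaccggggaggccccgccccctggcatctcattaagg
Tcf7l1, minus strand, chr6:72789046-72789295: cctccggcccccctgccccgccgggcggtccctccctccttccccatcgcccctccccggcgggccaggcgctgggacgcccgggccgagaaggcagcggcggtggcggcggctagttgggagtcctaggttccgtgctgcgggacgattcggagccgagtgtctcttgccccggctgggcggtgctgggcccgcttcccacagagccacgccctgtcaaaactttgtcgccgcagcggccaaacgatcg
Axin2 downstream region, plus strand, chr11:108980489-108980738: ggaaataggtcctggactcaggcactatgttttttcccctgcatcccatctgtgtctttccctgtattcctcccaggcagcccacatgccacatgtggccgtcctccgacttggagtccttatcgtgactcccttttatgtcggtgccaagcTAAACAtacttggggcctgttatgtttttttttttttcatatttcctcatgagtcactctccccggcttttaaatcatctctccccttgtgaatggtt

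In the Tcf7l2 stretch the site was base 178, counted from the first base shown, and the TGTTTA match began 4 bases after it. In the Axin2 stretch the site was base 168 and the nearest base of the match lay 10 bases before it. In the Tcf7l1 stretch the site was base 102 and no match was present. The Tcf7 window with a site held the longer core TGTTTAC on the opposite strand, written here as GTAAACA in capitals, 53 bases from the site and just after the listed start. The Ctnnb1 window with a site held none of the motifs searched, and the 30 bases around its site are shown with it for comparison.

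Tcf7, minus strand, chr11:52282576-52282605: cctttataggaGTAAACAgacccccgccat
Ctnnb1, plus strand, chr9:120933502-120933531: tggcggccgcgtcagctcgtgtcctgtgaa

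Across all promoter windows, 13.4% held TGTTTA, namely 11.3% of the windows with a shared site and 13.8% of those without. The longer TGTTTAC, which contains TGTTTA, was in 4.17% of windows with a shared site and in 3.55% of those without. The Tcf/Lef cores CTTTGAT and CTTTGAA, searched on both strands, were in 3.73% and 5.14% of all windows, and in none of the 12 windows of the 6 genes. Windows of the noncoding genes 4930593C16Rik, near Ctnnb1, and Gm46600, inside Axin1, also held a site of these genes. Neither held any of the forkhead or Tcf/Lef motifs searched. These are matches of letters and do not show which bases FOXF1 contacted.

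Ctnnb1, which encodes beta-catenin itself, spans positions 120933400 to 120960507 of chromosome 9 and had its highest site near its start. That site, at 120933517, scored 122 in replicate 1 and 76.5 in replicate 2 and ranked above 90.8% and 95.2% of shared sites. It lay 117 bp inside the gene and 61 bp upstream of the second of 2 listed starts. The next 2 sites, at 120913373 and 120915122, formed a pair 1749 bp apart about 20 kb upstream, with scores of 118 and 54.3 for the first and 87.0 and 43.7 for the second. Of the other 3 sites, the highest scored 43.1 and 22.1, and the remaining pair ranked in the lowest 10% of shared sites in both replicates. The right neighbour Ulk4 begins 3947 bp beyond the gene, so no site to the right could be assigned to Ctnnb1 beyond the midpoint of that gap. On the left, a gap of 358747 bp separates it from Rpl14, and 9 further sites in that gap had a Ctnnb1 end as their nearest but lay 125750 to 173426 bp away, beyond the limit.

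Among the Tcf/Lef factors, the site with the highest mean score lay away from the start in each of the 4 genes, although at Tcf7l1 the order of its first 2 sites differed between the replicates. Sites at the starts differed widely in score. Tcf7l2, a main partner of beta-catenin in epithelium and elsewhere, spans 55741797 to 55933659 of chromosome 19. Its site at 55806824, inside the gene and 65014 bp downstream of the first listed start, was the highest of the 60, with scores of 228 and 126. It ranked above 99.3% of shared sites in replicate 1 and 99.5% in replicate 2. The start site of Tcf7l2, at 55741737, scored 108 and 68.3. A site at 56017732, 84073 bp beyond the right end of the gene, followed with 87.9 and 36.0.

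The remaining 13 sites of Tcf7l2 had mean scores of 8.51 to 37.5 and fell into no single place. Of the 16 sites, 8 lay inside the gene, and the site beside the second listed start, 568 bp after it, was the lowest of all, with 11.4 and 5.60. Beyond the right end lay 7 sites, of which 5 stood 72520 to 96109 bp away, in a gap of 353450 bp before Habp2. The limit of 100 kb cut through this group, since 4 more sites stood 101863 to 162351 bp from the end.

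Lef1, the factor that is often itself switched on by WNT, spans 131110297 to 131224357 of chromosome 3. Its highest site was distal, at 131043478 and 66819 bp upstream, with scores of 153 and 82.7 and ranks above 95.1% and 96.3% of shared sites. Inside the gene, the highest site at 131139949 scored 70.4 and 31.1. A site at 131112481, 310 bp upstream of the third of 4 listed starts, scored 49.9 and 31.1. No shared site lay in any of the 4 promoter windows of Lef1, although 1 of them holds TGTTTA. Beyond the limit stood 4 further sites with a Lef1 end as their nearest, 123052 to 173347 bp away.

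Tcf7, known mostly from T cells but also a WNT target elsewhere, spans 52246527 to 52283383 of chromosome 11 and is transcribed towards lower positions. Its highest sites lay inside the gene at 52268592, with scores of 118 and 54.9, and at 52273387, with 93.8 and 45.6, which is 14003 and 9208 bp downstream of a listed start. The site at 52282647, 52 bp upstream of the second listed start and inside the window with GTAAACA, scored only 19.9 and 10.8. A site 35351 bp outside the gene, at 52318734, scored 52.0 and 16.0.

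Tcf7l1, which acts mainly as a repressor, spans 72626371 to 72789045 of chromosome 6, also towards lower positions, and held 8 of its 9 sites inside the gene. The highest, at 72740717 and 48328 bp downstream of the start, scored 93.8 and 38.3. The site 149 bp upstream of the start, at 72789194, scored 68.6 and 56.1. It was thus second in replicate 1 and first in replicate 2. The third, at 72755681 inside the gene, scored 40.3 and 14.8, and the other 6 sites had lower mean scores, down to 8.92.

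**Figure D2:**
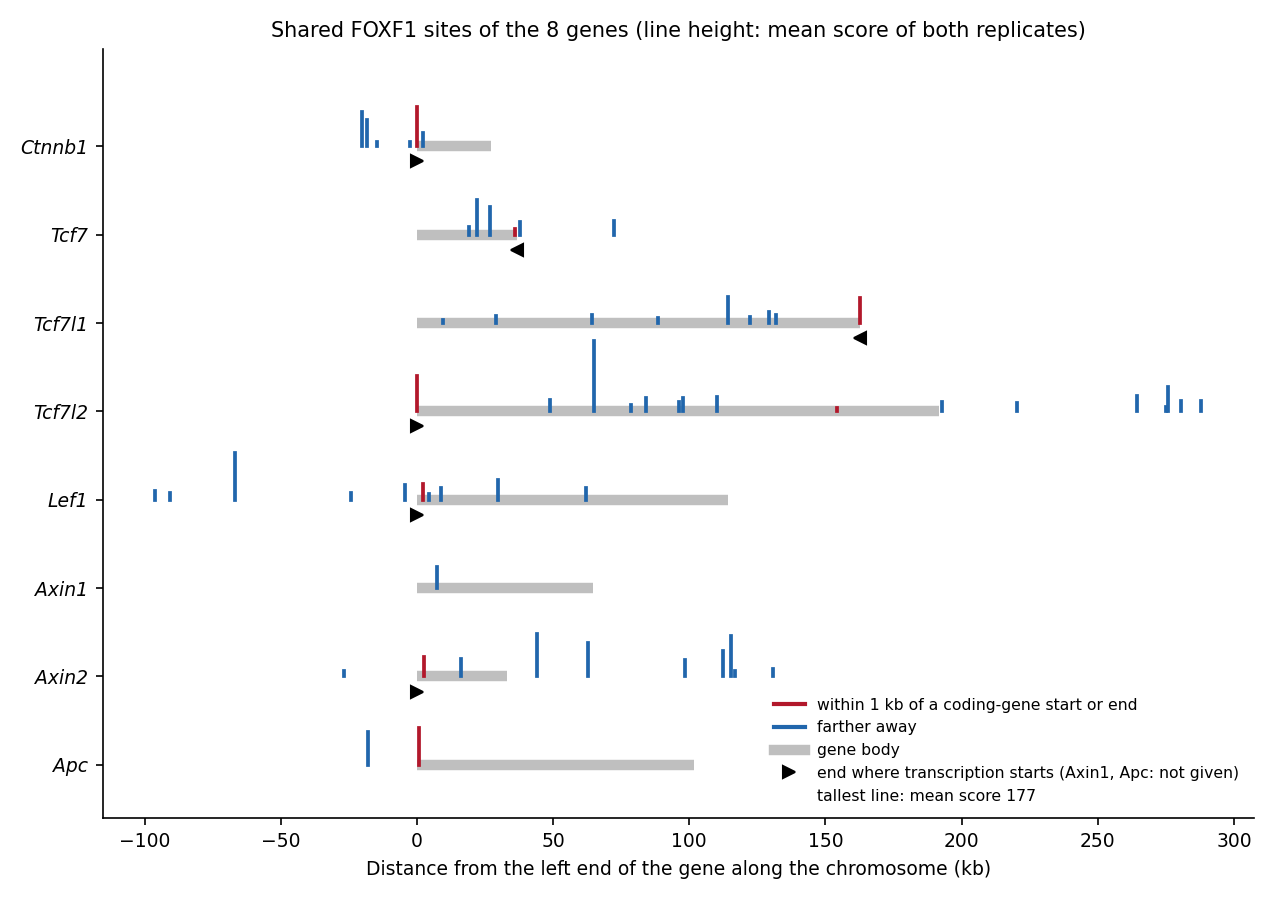
Positions of the 60 shared sites along the chromosome, in kb from the left end of each gene (x axis), for the 8 genes; grey bars are gene bodies, line height is the mean score of both replicates, and red lines lie within 1 kb of a start or end of a protein-coding gene. The tallest line, with a mean score of 177, stands inside Tcf7l2, the highest Lef1 line stands upstream, and the highest Axin2 lines stand to the right of the gene.

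Among the scaffolds of the destruction complex, Axin2 had by far the most sites, and most of them lay beyond its far end. Axin2, the feedback inhibitor that WNT induces, spans 108917828 to 108950783 of chromosome 11, and 7 of its 10 sites lay downstream, in a gap of 274565 bp before Rgs9. The highest, at 108961890 and 11107 bp beyond the end, scored 137 and 75.0. The next, at 109033018 and 82235 bp beyond it, scored 134 and 68.0, and the site at 108980656 in the stretch shown above scored 110 and 59.3. The second of these lies inside the noncoding gene Gm36876, as do 3 further sites, and 3 sites with Axin2 as the nearest end stood beyond the limit, 109475 to 119847 bp away. At Axin2 itself, the site 121 bp after the listed start scored 57.9 and 41.8, and the site at 108934010 inside the gene scored 66.2 and 19.4.

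Axin1, the scaffold present in most cells, had a single site at 26138729 of chromosome 17, 7512 bp inside the left end of the gene, with scores of 57.9 and 49.9. Each replicate listed 1 summit for Axin1. The site lay 23 bp inside the start of Gm46600, a noncoding gene within Axin1. The gene spans 26131217 to 26195811 and has close neighbours, with Mrpl28 4604 bp and Pdia2 188 bp away.

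Apc, which helps present beta-catenin for degradation, had few but high sites. It spans 34220297 to 34322190 of chromosome 18, and 1 site lay inside it, at 34220993 and 696 bp from the left end, with scores of 89.3 and 96.1. The other, at 34202401 and 17896 bp to the left, scored 111 and 52.3. The first ranked above 81.8% of shared sites in replicate 1 and 97.9% in replicate 2, and the other above 88.6% and 87.3%. The rest of the gene, 101894 bp long in all, held no shared site, and 2 sites on the left stood just beyond the limit, at 102176 and 103513 bp.

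The 60 sites were of ordinary height for this experiment. Their median mean score was 31.7, beside 32.0 over all shared sites. In both replicates, 5 of the 60 (8.33%) ranked in the highest 10%, beside 8.05% of all shared sites. These 5 belonged to 4 genes, namely Ctnnb1, Tcf7l2, Lef1 and Axin2, which held 2 of them, beside 10.2% of protein-coding genes with such a site. That 10.2% covers genes of all lengths, with a median of 1 site, while the 8 genes had a median of 7.5. No share was taken among genes of like length or number of sites. Inside their genes lay 31 of the 60 (51.7%), beside 57.9% of all shared sites inside some protein-coding gene. The base of the second share also holds sites too far from any gene to be assigned. The replicates placed the summits a median of 19 bp apart at these sites, and 13 bp apart over all shared sites.

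Sites at gene starts ranked higher in replicate 2 than in replicate 1. Of the 60 sites, 8 (13.3%) lay within 1 kb of a listed start or of an end of a protein-coding gene, beside 19.6% of all shared sites, and they belonged to 7 of the 8 genes, beside 42.9% of all protein-coding genes. All 8 ranked higher in replicate 2, by 0.8 to 17.0 percentage points, with a median of 13.3. The smallest shift was that of the low site at the second start of Tcf7l2, and the widest was that of the Tcf7l1 start site. Of the 52 sites farther away, 27 ranked higher in replicate 2, and the differences ran from -21.3 to 30.4 points with a median of 0.1. The most positive of these belonged to a Tcf7 site 1029 bp outside the gene, with scores of 33.5 and 28.3, and the next to the Axin1 site at the start of Gm46600, at 21.9 points. No start is listed for Axin1, so nearness of that site to a start of Axin1 could not be judged. A Tcf7l2 site 1001 bp beyond the right end of the gene, just outside the 1 kb group, had a difference of -12.2 points.

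The higher rank in replicate 2 near gene starts and ends was present across the whole experiment, so it is not particular to these genes. Over all shared sites, the median difference was 15.0 points within 1 kb of a coding start or end and -2.9 points farther away, and 86.6% and 33.6% of sites ranked higher in replicate 2. With 1 pool of lungs per replicate, a difference between the pools and one between the libraries cannot be told apart.

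**Figure D3:**
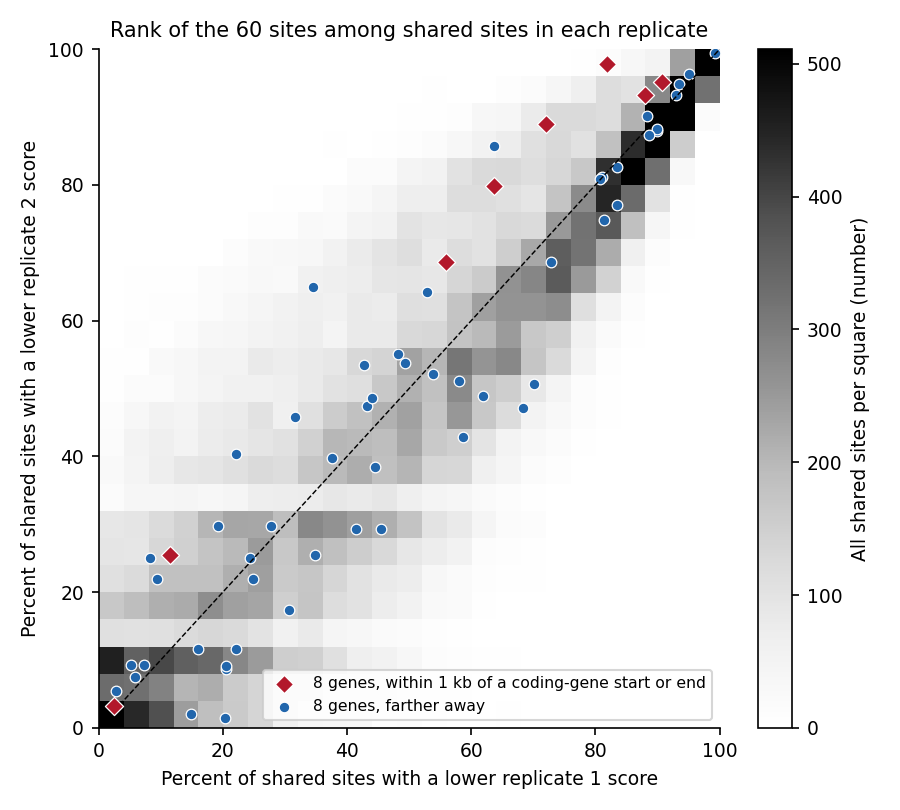
Rank of each site in replicate 1 (x axis) and replicate 2 (y axis), as the percentage of the 51013 shared sites with a lower score; grey squares count all shared sites, red diamonds are the 8 sites within 1 kb of a coding-gene start or end, blue points the other 52 sites of the 8 genes, and the dashed line marks equal rank. All 8 diamonds lie above the line, and the blue points lie on both sides of it.

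Other genes of the pathway were counted in 8 lists of ligands, receptors, regulators, partners and targets. Besides the 8 genes these hold 87, of which 79 (90.8%) had a site, beside 60.7% of all protein-coding genes. Their median length was 42892 bp, and 70.0% of genes of 20 to 50 kb had a site. The median was 4 sites, beside 1 over all protein-coding genes. A site ranking in the highest 10% in both replicates was present at 24 of the 87 genes, beside 10.2% of all protein-coding genes, whatever their length or number of sites. The counts of the lists that follow stand beside the same 60.7%. The lists overlap, with 5 genes in more than 1 of them, and the targets list includes Tcf7, Lef1 and Axin2.

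Upstream of beta-catenin, 9 of 10 WNT ligand genes had a site, with a median of 2.5, led by Wnt7b, a ligand of lung epithelium, with 6 sites, and then by Wnt2b and Wnt5b with 4 each, and Wnt3 had 0. All 11 receptor genes had a site, with a median of 3, led by the coreceptor gene Lrp5 with 9 and by Fzd6 with 8. Of 8 genes of the R-spondin axis, which raises receptor levels, 7 had a site, led by Lgr5 with 7, and then by Rspo3 and Znrf3 with 5 each, and Rspo1 had 0. The list of secreted inhibitors holds 10 genes, among them Kremen1, which encodes a membrane receptor of Dkk proteins and is not secreted. Of these 10 genes 7 had a site, led by Dkk2 with 9, and then by Dkk3 and Kremen1 with 6 each. Dkk1, Sfrp5 and Notum had 0.

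Around beta-catenin, all 16 other destruction-complex and Dishevelled genes had a site, with a median of 2.5, led by the kinase genes Csnk1a1 with 9 and Csnk1e with 8. Of 15 nuclear partners and corepressors 13 had a site, led by the corepressor gene Tle4 with 19 and by Bcl9l, which links beta-catenin to the transcription machinery, with 12. Pygo1 and Ep300 had 0. All 9 junction partners had a site, with the highest median of these lists at 7. Their median length, 135875 bp, was also the greatest of these lists, and genes of 100 to 200 kb had a median of 4 sites. The junction partners were led by the alpha-catenin gene Ctnna3 with 18, a gene 1573570 bp long. Cdh5, which encodes VE-cadherin of endothelial junctions, followed with 17 over a length of 42892 bp. Of 16 target genes 13 had a site, with a median of 5.5, led by Cd44 and Sox17 with 12 each. Besides Sp5, the targets with 0 were Notum and Dkk1.

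**Figure D4:**
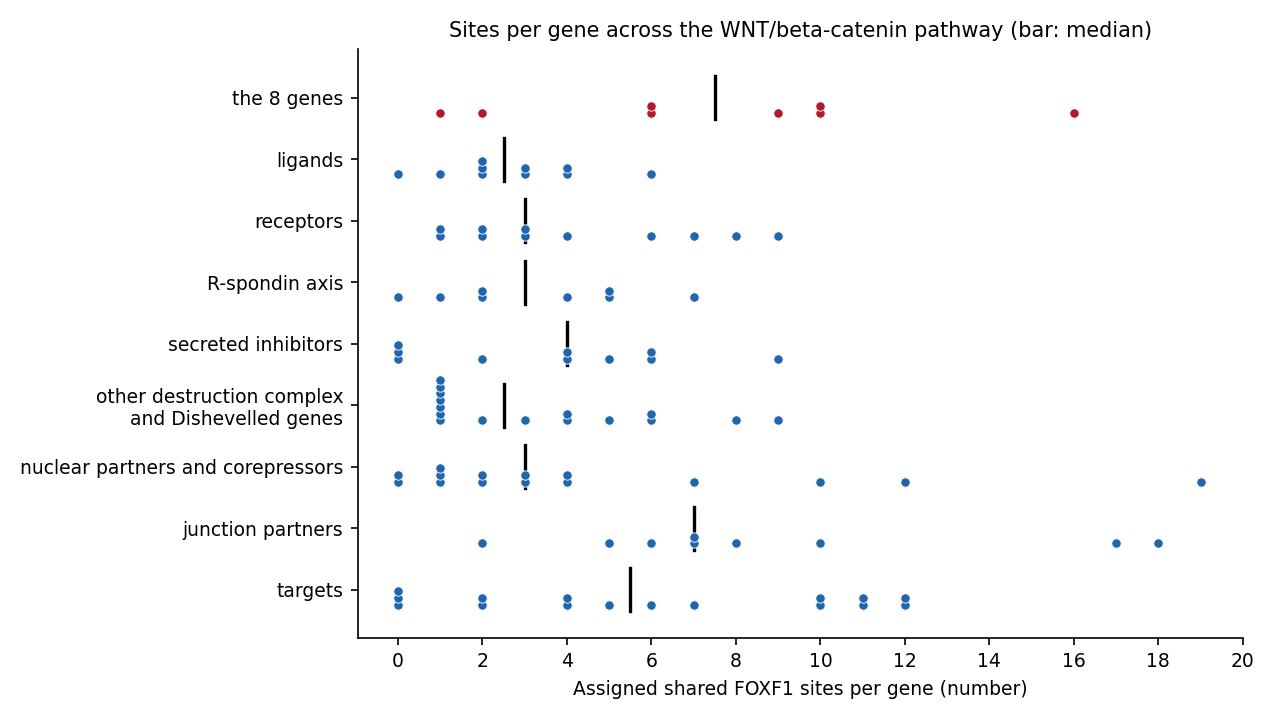
Assigned shared FOXF1 sites per gene (x axis) in the 8 genes (red) and in 8 lists of the WNT/beta-catenin pathway (blue); each point is 1 gene, points of equal value are stacked, and black bars are medians. The median is 7.5 in the 8 genes, 7 in junction partners and 2.5 to 5.5 in the other lists.

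In length and number of sites together, the genes most like Tcf7l2 among all protein-coding genes were Zeb1, Ccdc85a and Inpp5a. They had 16, 16 and 17 sites and lengths of 184142, 201551 and 190579 bp, and the sum of the absolute log2 ratios of length and number was 0.06, 0.07 and 0.10.

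With the 10000 highest summits of each replicate, 12 sites remained over the 8 genes, 3 at Axin2, 2 each at Ctnnb1, Tcf7, Tcf7l2 and Apc, and 1 at Lef1, while Tcf7l1 and Axin1 had 0. With that selection 16.7% of all protein-coding genes, whatever their length, had a site, beside 6 of the 8. The number of distal sites also rested on the distance allowed. Counting only sites inside a gene or within 5 kb of its ends left 38, with 2 in place of 10 at Axin2 and 6 in place of 10 at Lef1.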

How the data were processed

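FOXF1 was mapped by ChIP-seq in 2 pooled whole-lung replicates. The authors called peaks with MACS2 on mm10, per the submitters' processing notes, in 1 list per replicate against the control, per the peak names. Each deposited score is a −log10 significance at the summit. The sources used here do not state whether it is of a p or a q value, nor the aligner, options, duplicate treatment or depth. Lowest scores were 2.04 and 2.02.

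Mutual nearest summits at most 100 bp apart were paired, placed midway and assigned to genes with Python 3.11.15 and numpy 2.4.6. The steps were checked on simulated pairs of summits placed inside protein-coding genes. That check did not cover sites far outside genes, the 100 kb limit or pairs near the 100 bp limit. Genes and promoter windows came from RefSeq (GRCm38.p6). Exons and introns were not told apart, and for Axin1 and Apc no promoter window was used. There is 1 ChIP group and no contrast, so no test was run. The members and lists were chosen with earlier results of these data known. Named are each gene's 3 highest sites and those within 1 kb of its ends, in each list the 2 genes with most sites (with ties) and those with 0, and the 3 genes most like the member with most sites. Other named sites, the limits of 6 and 9 sites, the length classes, the 1 kb and highest 10% groups and the ranks were chosen after values were seen.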

Additional observations from a re-analysis of the deposited data

How the results depend on the processing

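The number of the 8 genes with a site was 8 under every alternative but the 10000 highest summits of each list, where it was 6. The total of 60 sites moved to 12 with those summits, to 38 when counting only sites inside a gene or within 5 kb, and lay between 70 and 133 with the list of replicate 1 or 2 left out; with replicate 1 alone, 72.4% of protein-coding genes had a site. It was 49 and 64 at pairing distances of 50 and 200 bp, 48 at a score of at least 10, 47 with a limit of 50 kb, and again 60 by nearest gene end alone. With the list of replicate 1 alone, Ctnnb1 had 19 summits, Tcf7 13, Tcf7l1 22, Tcf7l2 25, Lef1 23, Axin2 24 and Apc 6, and with that of replicate 2 alone Apc had 4. Axin2 had 6 sites and Ctnnb1 3 at 50 bp, Axin2 5 at 50 kb, and Tcf7l1 5 at a score of at least 10. The highest Lef1 site had a mean score of 50.8 in place of 118 at 50 kb and at 5 kb, and that of Axin2 49.9 in place of 106 at 5 kb, since the distal sites then fall away. Over the 8 genes the median of the highest mean scores was 95.9. Under the alternatives that used both replicates it ran from 76.2 to 103, the latter over the 6 genes left with the 10000 highest summits. With 1 list alone the value is a score of that list, and it was 120 for replicate 1 and 75.8 for replicate 2. No paired analysis was possible because the only group with replicates is the ChIP group. The read depth is unknown, so no limit can be set for genes or stretches without a site.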
